A study of Homo sapiens with 7 samples.

Results

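The genes described here encode the catenins and classical cadherins that build the adherens junction of animal cells. The 10 members were chosen by name from the 19978 genes of the deposited table, and they are the catenins CTNND1, CTNND2, CTNNB1, JUP, CTNNA1 and CTNNA2 and the cadherins CDH1, CDH2, CDH3 and CDH11. RNA was sequenced from HEK-293 cells, an established human embryonic kidney line, and the question asked of these genes was how their transcript levels differed between acidified medium, an inhibitor of the SR protein kinases and medium with solvent alone. The control group (2 samples) was kept in DMEM of pH 7.4 with the solvent DMSO, the acidosis group (3 samples) in DMEM acidified to pH 6.6 with the same volume of DMSO, and the SRPIN340 group (2 samples) in DMEM of pH 7.4 with 10 µM SRPIN340, a small molecule that blocks the kinases of SR splicing factors, and the same share of DMSO. All groups shared the line, a serum-containing medium and a treatment of 48 h. HEK-293 cells are transformed cells grown as a layer on plastic, so they model neither a polarised epithelium nor a tumour. CTNND1 was among the transcripts whose exon use was followed in the study, and the deposited values hold 1 estimated count per gene, so they give its total level and not the inclusion of any exon.

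Classical cadherins are transmembrane proteins whose outer parts bind the same cadherin on a neighbouring cell, and whose cytoplasmic tails are held by catenins. Beta-catenin (CTNNB1) or its close relative plakoglobin (JUP) binds the distal tail and passes force to actin through alpha-catenin (CTNNA1), while p120-catenin (CTNND1) binds the part of the tail next to the membrane, keeps the cadherin from being internalised and acts on small GTPases. Beta-catenin has another role in the Wnt pathway, in which it escapes a degradation complex, enters the nucleus and activates TCF and LEF factors. HEK-293 cells are known for N-cadherin (CDH2) rather than E-cadherin (CDH1) as their main cadherin.

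The CTNND1 gene (ENSG00000198561.16) is a plus-strand gene at chr11:57753243-57819546 (GRCh38), and its canonical transcript in GENCODE release 44 has 21 exons and 6670 nt. Exons 11, 18 and 20 are shown because they are cassette exons, which alternative splicing includes or skips. They are not the only variable exons. Toward the 5′ end, exon 2 is in 15, exon 3 in 14 and exon 4 in 27 of 39 annotated coding transcripts, counted with identical ends. Exon 11 (chr11:57806461-57806478, 18 nt, known as exon C) is in 12 of 39 annotated coding transcripts, exon 18 (chr11:57814311-57814373, 63 nt, exon A) is in 31, and exon 20 (chr11:57815915-57816001, 87 nt, exon B) is in 12. All 3 are coding, and their lengths are multiples of 3 nt, equal to 6, 21 and 29 codons. Including or skipping one therefore keeps the reading frame, although an exon may begin and end inside a codon. In the sequences below, read 5′ to 3′ from GRCh38, capitals mark the bases of exon 20 that the junction primer of the study covers.
CTNND1 exon 11: atgagtggttctccagag
CTNND1 exon 18: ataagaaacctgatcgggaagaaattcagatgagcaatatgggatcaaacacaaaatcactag
CTNND1 exon 20: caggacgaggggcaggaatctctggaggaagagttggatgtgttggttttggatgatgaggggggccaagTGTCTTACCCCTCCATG
The study followed exon 20 with a primer pair across the junction of exons 20 and 21 and with a reference pair inside exon 21 (chr11:57816297-57819540, 3244 nt, of which 9 are coding). The forward junction primer has 17 bases in exon 20 and 5, shown in capitals, in exon 21, and the expected products are 129 and 90 nt long on the canonical transcript.
Junction pair, forward: tgtcttacccctccatgCAGAA
Junction pair, reverse: tggcacaatagtccagcgaa
Exon 21 pair, forward: gtctgaaactggcttcccca
Exon 21 pair, reverse: gtttgccaaccaatccaggg

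**Figure D1:**
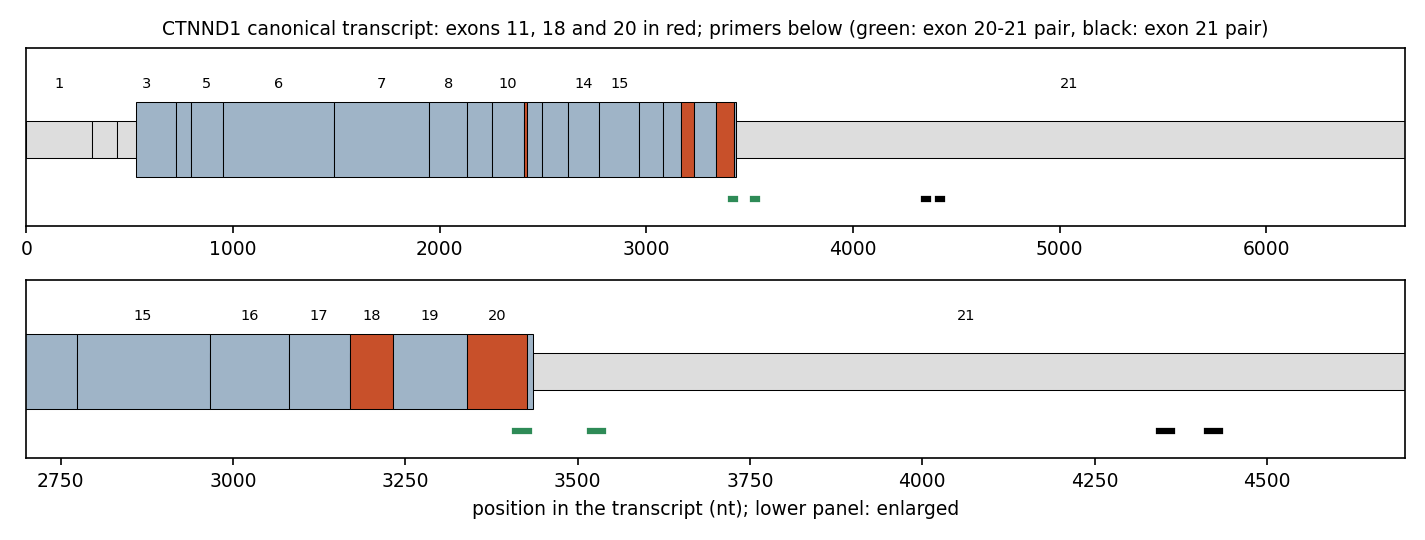
Exons of the canonical CTNND1 transcript drawn to scale against position in the transcript (nt), whole in the upper panel and enlarged around exon 20 in the lower one. Taller boxes are coding, red boxes are exons 11, 18 and 20 (18, 63 and 87 nt), green bars are the junction primers and black bars the primers inside exon 21.

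Library totals lay between 13615816 and 24110460 counts, with the lowest totals in acidosis. Levels are given as CPM, counts relative to the library total after TMM scaling, whose factors were 1.17 to 1.21 at pH 7.4 and 0.782 to 0.8 at pH 6.6, so a change in acidosis is a change relative to the typical gene. Of the 19978 genes, 14863 were tested in a fit of all 7 samples with edgeR's quasi-likelihood test, and a gene that stayed under 0.05 after Benjamini-Hochberg adjustment is said to have passed, and to have been called if its log2 fold change was also beyond 1 in either direction. The samples of a group are biological repeats by the study's methods, which also describe replicates of each repeat. The table holds 1 column per repeat, how its replicates were merged is not given in the sources used here, and n counts repeats. All 7 HEK-293 marker genes listed (VIM, KRT8, KRT18, NEFL, NEFM, INA and PAX2) were above 0 in every sample, and their sum was 1421 to 1480 CPM without acid and 3502 to 3517 CPM in acidosis, where 4 passed higher and 3 lower than in control, while the blood marker CD3E was at 0 in all 7. The summed level of 6 fibroblast markers was 42.1 to 55.1 CPM without acid and 82.1 to 95.6 CPM in acidosis, that of 4 endothelial markers 4.5 to 6.91 and 1.03 to 2.55 CPM, and that of 4 blood markers 0.59 to 0.948 and 1.93 to 3.18 CPM. Of the fibroblast list 2 genes passed higher and 1 lower in acidosis, of the endothelial list 1 and 1, and of the blood list 2 and 0. Of the defining markers, the fibroblast collagen gene COL1A2 had at most 9.23 counts in a sample and the endothelial receptor gene TEK at most 3.12, with 0 in all 3 acidosis samples. The part of these markers in the results was not tested.

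Acidosis moved CTNNB1 and CDH11 down by the widest margins among the members, and CTNND1, CTNNA1 and CDH2 up by smaller ones that depended on how libraries were scaled. Of the 9 members tested, 3 passed higher and 2 lower in acidosis than in control, against 32.5% and 34.2% of all genes tested, and 4 did not pass. Both lower members were called, where 19.1% of all genes were called lower and 14.4% higher. The median log2 fold change of the 9 members was -0.17, against -0.052 over all genes, with members on both sides, from -1.92 for CDH11 to 0.50 for CTNNA1. With libraries scaled by total count only, 0 members passed higher and 7 lower, against 16.2% and 55% of all genes, and the 2 that did not pass were CTNND1 and CTNNA1.

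CTNND1, which encodes p120-catenin, was at 143 and 147 CPM in the control samples and at 196, 203 and 197 CPM in acidosis. Every acidosis sample stood above both control samples, and the replicates of a group lay close together. Group means were 145 ± 2.53 CPM in control (SD, n = 2) and 198 ± 3.67 CPM in acidosis (SD, n = 3). The log2 fold change was 0.45 (standard error 0.0697, 95% interval 0.29 to 0.61, adjusted p = 0.00028), which became -0.12 when libraries were scaled by their total count only. In bulk RNA, fewer cells of a type and less RNA per cell cannot be told apart, and this holds for every level given here.

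Some reads of CTNND1 may be counted elsewhere. A pair of annotated read-through genes on the same strand share exon sequence with it, ENSG00000288534 up to 2135 nt and ENSG00000254732 up to 536 nt. They held 6.16% and 2.79% of the counts of CTNND1 and these genes together in control, 0% and 1.62% with SRPIN340, and 11.7%, 11.2% and 7.38% in acidosis. With their counts added to CTNND1, its log2 fold change in acidosis was 0.54 and no member crossed the threshold in any of the 3 comparisons. Transcripts of other annotated genes overlap exons of CDH1, CDH2, CDH3 and CTNNA2 on the opposite strand and of CDH11 on the same strand, and none of these genes is a row of the table.

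Levels of CTNND2, the neuronal relative of p120-catenin known as delta-catenin (ENSG00000169862.21, chr5:10971836-11904446), were 3.78 and 2.18 CPM in control and 2.08, 2.57 and 2.41 CPM in acidosis. The groups overlapped, and the wider spread was in control. Its log2 fold change was -0.35 (95% interval -1.13 to 0.44, adjusted p = 0.405), an interval that covers changes in either direction. With total-count scaling it was -0.92 and passed lower (adjusted p = 0.0373).

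CTNNB1 (ENSG00000168036.18, plus strand, chr3:41194741-41260096, 15 exons in its canonical transcript), the gene of beta-catenin, was at 365 and 336 CPM in control and at 118, 115 and 122 CPM in acidosis. The acidosis samples sat far below both control samples and differed little from each other. With group means of 351 ± 20.5 CPM in control (SD, n = 2) and 118 ± 3.27 CPM in acidosis (SD, n = 3), CTNNB1 was 2.96-fold lower, at -1.57 on the log2 scale (standard error 0.0641, 95% interval -1.71 to -1.42, adjusted p = 4.83e-08). Over 14 alternative settings, total-count scaling among them, the log2 fold change stayed between -2.14 and -1.51 and passed in each.

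JUP (ENSG00000173801.17, minus strand, chr17:41754604-41786931), the gene of plakoglobin, which can take the place of beta-catenin on a cadherin tail and also sits in desmosomes, was at 104 and 120 CPM in control and at 104, 95.7 and 105 CPM in acidosis. The groups overlapped. Its log2 fold change of -0.14 had an interval of -0.33 to 0.05 (adjusted p = 0.173), and it passed lower with total-count scaling (-0.72, adjusted p = 3.71e-05) and with upper quartile scaling (-0.30, adjusted p = 0.0109).

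Alpha-catenin is encoded by CTNNA1 (ENSG00000044115.21, plus strand, chr5:138610967-138935034), which was at 319 and 343 CPM in control and at 506, 453 and 442 CPM in acidosis. All acidosis samples were above both control samples, and acidosis replicate 1 was the highest. Group means were 331 ± 16.4 CPM in control (SD, n = 2) and 467 ± 34.3 CPM in acidosis (SD, n = 3), and the fitted log2 difference was 0.50 (standard error 0.0754, 95% interval 0.33 to 0.67, adjusted p = 0.000247), which turned to -0.078 with total-count scaling. CTNNA2 (ENSG00000066032.19, chr2:79185231-80648861), the alpha-catenin of neurons, had 1 estimated count in control replicate 1 and 0 in the other 6 samples and was not tested. A count of 0 allows a level of up to 0.105 to 0.275 CPM in those samples, taken as 3 counts of the scaled total and covering counting error only.

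**Figure D2:**
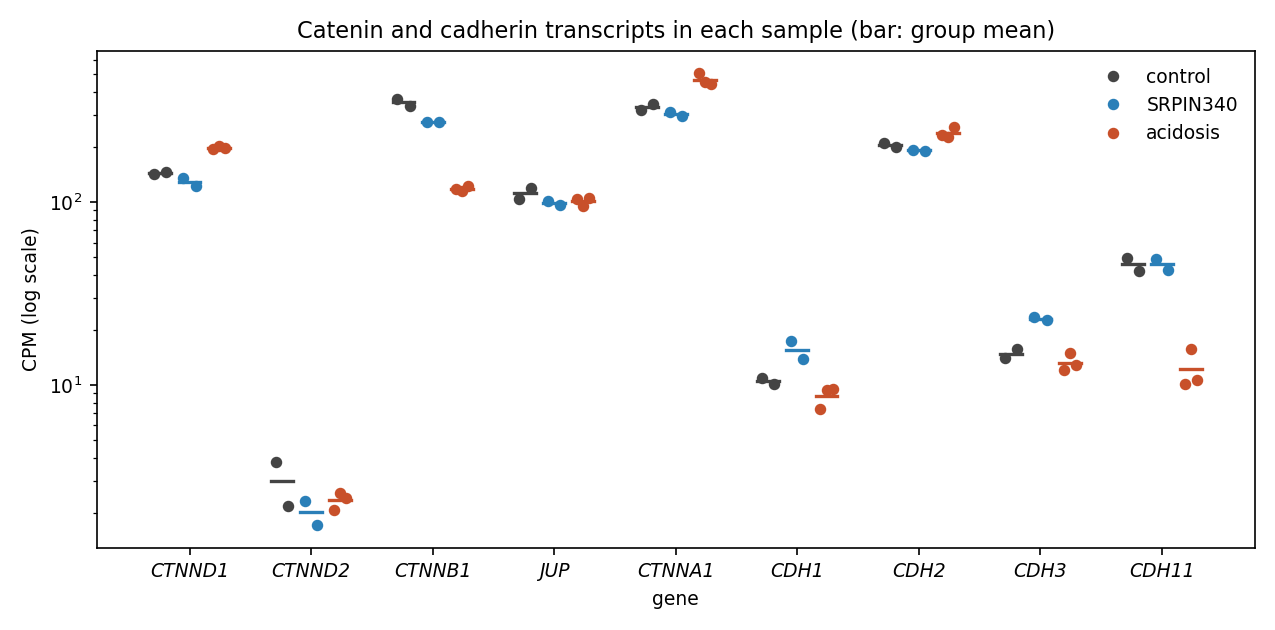
CPM of the 9 members tested in each of the 7 samples on a log axis; points are samples, coloured by group, and bars are group means. CTNNB1 and CDH11 lie lower in all 3 acidosis samples than in the other 4, CTNND1 and CTNNA1 lie higher (for these 2, the sign against control reverses when libraries are scaled by total count only), and CDH1 and CDH3 lie highest in the 2 SRPIN340 samples.

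Promoters of CTNNB1 and CTNNA1 are printed because these partners in 1 complex moved in opposite directions under TMM scaling. The windows run from 250 bases before to 50 after the start of the canonical transcript and come from RefSeq (GRCh38.p14), in which 6 of the 10 members matched, namely CTNND2, CTNNB1, JUP, CTNNA1, CTNNA2 and CDH2. Capitals mark GC boxes, searched as GGGCGG on both strands with overlapping matches counted, and the sequences are written along the gene, 5′ to 3′, CTNNB1 from the plus strand at chr3:41199255-41199554 and CTNNA1 from the plus strand at chr5:138753175-138753474.
CTNNB1 promoter: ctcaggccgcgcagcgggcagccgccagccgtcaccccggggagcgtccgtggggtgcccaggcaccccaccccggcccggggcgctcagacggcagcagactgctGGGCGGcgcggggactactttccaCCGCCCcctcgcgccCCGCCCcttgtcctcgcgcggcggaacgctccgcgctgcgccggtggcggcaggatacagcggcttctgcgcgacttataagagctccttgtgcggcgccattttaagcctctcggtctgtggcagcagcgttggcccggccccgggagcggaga
CTNNA1 promoter: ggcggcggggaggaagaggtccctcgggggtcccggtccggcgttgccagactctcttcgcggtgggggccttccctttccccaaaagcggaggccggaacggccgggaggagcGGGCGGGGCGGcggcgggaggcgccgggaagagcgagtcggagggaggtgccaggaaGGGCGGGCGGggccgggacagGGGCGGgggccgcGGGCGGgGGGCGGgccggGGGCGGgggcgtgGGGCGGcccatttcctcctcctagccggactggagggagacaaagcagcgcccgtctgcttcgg
The CTNNB1 window held 3 GC boxes and 74.0% G or C, and the CTNNA1 window 9 and 77.7%, where 45.0% of the 35116 RefSeq windows of this length hold at least 1. Of the other windows, JUP and CTNNA2 held 3 GC boxes each and CTNND2 and CDH2 1 each, and JUP and CDH2 had a CCAAT box (CCAAT on either strand, in 34.6% of all windows). None of the 6 windows held the E-box CAGGTG read by SNAI and ZEB factors (either strand, 20.6% of all windows), the TCF motif CTTTGAT (either strand, 2.62%), the AP-1 motif TGANTCA (7.71%) or the CRE TGACGTCA (1.85%). These matches describe the letters in the windows and nothing about binding.

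Among the cadherins, CDH2 (ENSG00000170558.10, minus strand, chr18:27932879-28177946), the N-cadherin of neural and mesenchymal cells, was at 211 and 199 CPM in control and at 233, 227 and 259 CPM in acidosis. The groups did not overlap, by a margin smaller than the spread within acidosis. Its log2 fold change was 0.23 (standard error 0.0737, 95% interval 0.06 to 0.39, adjusted p = 0.021), which turned to -0.35 with total-count scaling, a pass in the other direction (adjusted p = 0.00122). The pass as higher was also lost without control replicate 2 (adjusted p = 0.166) and without acidosis replicate 3 (0.0565).

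CDH11 (ENSG00000140937.14, minus strand, chr16:64943753-65126112), a cadherin typical of mesenchyme and bone-forming cells, was at 49.3 and 41.9 CPM in control and at 10.1, 15.8 and 10.7 CPM in acidosis. The acidosis samples all lay well below control, with replicate 2 the highest of them. The group means, 45.6 ± 5.23 CPM in control (SD, n = 2) and 12.2 ± 3.14 CPM in acidosis (SD, n = 3), put CDH11 3.78-fold lower, at -1.92 on the log2 scale (standard error 0.18, 95% interval -2.32 to -1.51, adjusted p = 9.04e-06). It passed under all 14 alternative settings, with values from -2.49 to -1.79.

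CDH1 (ENSG00000039068.20, plus strand, chr16:68737292-68835537), the E-cadherin of epithelia, was at 10.9 and 10.2 CPM in control and at 7.42, 9.36 and 9.46 CPM in acidosis. All acidosis samples were below control, yet the test was not passed, with a log2 fold change of -0.28 (95% interval -0.67 to 0.12, adjusted p = 0.187). CDH3 (ENSG00000062038.15, plus strand, chr16:68636189-68727468), the P-cadherin of basal epithelial cells and the neighbour of CDH1 on the chromosome, was at 14.0 and 15.7 CPM in control and at 12.1, 14.9 and 12.8 CPM in acidosis. These groups overlapped, and its log2 fold change was -0.17 (95% interval -0.49 to 0.15, adjusted p = 0.315). Total-count scaling gave a lower level in acidosis with a pass for both, at -0.85 and -0.74. Over all 9 members, 6 had groups that did not overlap, against 76.5% of all genes tested.

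With SRPIN340, most differences of the members from control did not pass the test. Of 9 tested, 1 passed lower and 0 higher, against 1.53% and 0.767% of all genes, and 0 were called (0.128% of all genes higher and 0.195% lower). CTNNB1 was the member that passed, at 276 and 274 CPM with SRPIN340 against 365 and 336 CPM in control. Both SRPIN340 samples were below both control samples, with a log2 fold change of -0.35 (standard error 0.0698, 95% interval -0.51 to -0.20, adjusted p = 0.0383). The pass was lost when any of the 4 samples was left out (adjusted p from 0.0929 to 0.30), with values between -0.41 and -0.29.

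The epithelial cadherins stood on the other side of control with SRPIN340. CDH3 was at 23.6 and 22.6 CPM, above both control samples (14.0 and 15.7 CPM), with a log2 fold change of 0.64 (95% interval 0.30 to 0.97, unadjusted p = 0.00197, adjusted p = 0.0628). CDH1 was at 17.3 and 13.9 CPM against 10.9 and 10.2 CPM, with a log2 fold change of 0.56 (95% interval 0.15 to 0.98, unadjusted p = 0.0127, adjusted p = 0.151). Neither passed in this fit, and CDH3, unlike CDH1, passed with DESeq2 (adjusted p = 0.0165) and with only the 2 groups compared in the edgeR fit (0.0358).

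CTNND1 was at 135 and 122.5 CPM with SRPIN340, below both control samples, with a log2 fold change of -0.17 (95% interval -0.34 to -0.0018, unadjusted p = 0.0481, adjusted p = 0.278). JUP was at 101 and 96.9 CPM (log2 fold change -0.18, adjusted p = 0.356) and CTNNA1 at 312 and 294 CPM (-0.13, adjusted p = 0.471). These values lay below control in each sample without a pass, as did those of CDH2, at 193 and 191 CPM (-0.09, adjusted p = 0.621). CDH11, at 48.9 and 42.7 CPM, lay within its control range, with a log2 fold change of 0.0068 and an interval of -0.41 to 0.42 (adjusted p = 0.993). CTNND2 was at 2.32 and 1.71 CPM and overlapped control (-0.56, interval -1.41 to 0.28, adjusted p = 0.494). In all, 7 of the 9 members had groups that did not overlap, where 54.1% of all genes did.

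**Figure D3:**
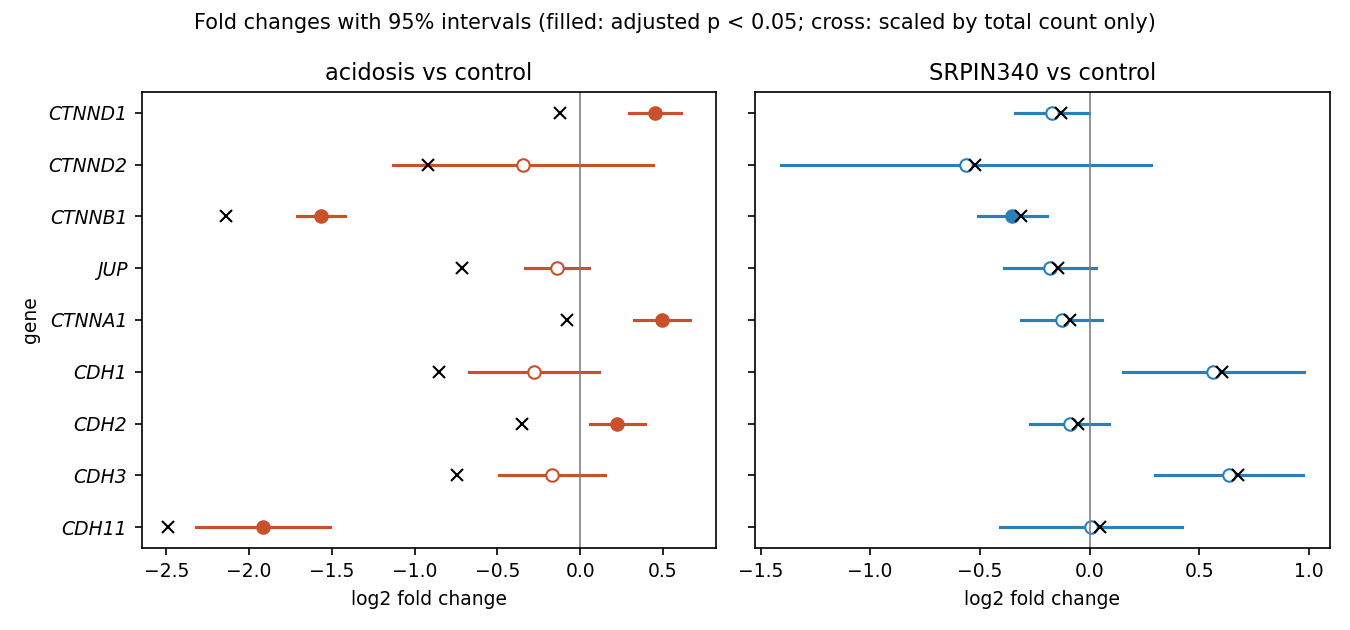
Log2 fold change (x axis) of each tested member against control, in acidosis (left) and with SRPIN340 (right); lines are 95% intervals, filled points have an adjusted p under 0.05, and crosses are the values with libraries scaled by total count only. In acidosis the crosses of CTNND1, CTNNA1 and CDH2 (-0.12, -0.078 and -0.35) fall on the other side of 0 from their points, while those of CTNNB1 and CDH11 stay on the same side.

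Acidosis and SRPIN340 share their control samples, so these 2 sets of values are not independent and were also set against each other directly. In acidosis against SRPIN340, 7 of 9 members passed, 3 higher and 4 lower, where 32.8% and 35% of all genes did. With total-count scaling 0 passed higher and 6 lower, where 15.8% and 56.9% of all genes did. The higher members were CTNND1 (log2 fold change 0.62, adjusted p = 3.12e-05), CTNNA1 (0.62, adjusted p = 5.15e-05) and CDH2 (0.32, adjusted p = 0.00366), of which CDH2 turned to -0.30 with total-count scaling and passed lower (adjusted p = 0.00312) and lost its pass with upper quartile scaling (0.16, adjusted p = 0.09), and the other two were at 0.0078 and 0.01 without a pass. The lower members were CTNNB1 (-1.21, adjusted p = 2.21e-07), CDH11 (-1.92, adjusted p = 8.69e-06), CDH1 (-0.84, adjusted p = 0.0017) and CDH3 (-0.81, adjusted p = 0.000586). CDH1 and CDH3 thus differed between the treatments, although under TMM scaling in the fit of all 7 samples neither passed against control in either of them. JUP (0.04, 95% interval -0.15 to 0.23) and CTNND2 (0.22, 95% interval -0.59 to 1.02) did not pass, and with total-count scaling JUP passed lower (-0.57, adjusted p = 0.00017).

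Levels of different genes were compared per length, as CPM per kb of each gene's canonical transcript. This assumes counts that grow with transcript length, which cannot be checked because the tximport option is not given. If lengths were already scaled out, the orders, ratios and shares of different genes given below would take other values. The fold by which a ratio of 2 genes differs between groups would stay the same. In control, CTNNB1 was the highest at 95.9 ± 5.59 CPM per kb (SD, n = 2), followed by CTNNA1 at 88.2 ± 4.38, CDH2 at 51.0 ± 2.03, JUP at 32.0 ± 3.11 and CTNND1 at 21.8 ± 0.379. CTNNB1 and CTNNA1 did not overlap (91.9 to 99.8 and 85.1 to 91.3 CPM per kb) but were closer than 2 SD of either, and their order reversed when the longest transcript gave the length. The remaining members followed with no overlap between neighbours, CDH11 at 6.79, CDH3 at 3.34, CDH1 at 2.19, CTNND2 at 0.506 and CTNNA2 at 0.0046 CPM per kb. With SRPIN340 the order was the same apart from CTNNA1 at 80.7 ± 3.37 and CTNNB1 at 75.1 ± 0.412, which had changed places.

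In acidosis the order of the abundant members was different. CTNNA1 led at 124 ± 9.13 CPM per kb (SD, n = 3), then CDH2 at 59.7 ± 4.23, and CTNNB1, CTNND1 and JUP came close together at 32.3 ± 0.892, 29.7 ± 0.55 and 29.0 ± 1.48. Of these, CTNND1 (29.4 to 30.4) and JUP (27.3 to 30.0) overlapped, and CTNNB1 (31.5 to 33.3) stood just above both. With the longest transcript as the length, CTNNB1 was the lowest of them in acidosis, at 24.2 ± 0.668 CPM per kb against 26.3 ± 0.486 for CTNND1 and 29.0 ± 1.48 for JUP (SD, n = 3), so this order rests on the length used. CDH3 at 2.98 ± 0.328 was followed by CDH1 at 1.82 ± 0.239 and CDH11 at 1.81 ± 0.467, which overlapped, and CTNND2 was at 0.40 ± 0.0426. CDH11, the runner-up among the cadherins in control, was thus level with CDH1 in acidosis.

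Ratios between members of the same sample do not depend on library scaling. Per length, CTNNB1 was at 4.65 and 4.17 times the level of CTNND1 in the control samples, at 3.72 and 4.07 times with SRPIN340 and at 1.1, 1.04 and 1.13 times in acidosis. The ratio of CTNNB1 to CTNNA1 was 1.17 and 1.01 in control, 0.907 and 0.955 with SRPIN340 and 0.24, 0.261 and 0.282 in acidosis. Each acidosis sample therefore held less beta-catenin transcript for its p120-catenin and alpha-catenin transcripts than any other sample, by more than the spread between replicates. With the longest transcript as the length, the mean ratios of CTNNB1 to CTNND1 were 3.73 in control and 0.921 in acidosis.

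Transcripts of the 2 catenins that compete for the same site on a cadherin came nearer to equal levels in acidosis. CTNNB1 made up 77.0% and 72.9% of the summed CTNNB1 and JUP level in control, 72.4% and 73.0% with SRPIN340, and 52.1%, 53.6% and 52.6% in acidosis. Control and SRPIN340 overlapped, and acidosis was apart from both. With the longest transcript as the length, the mean share of CTNNB1 was 69.2% in control and 45.5% in acidosis, so which of the 2 was ahead in acidosis depends on the length.

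The 4 cadherins summed to 63.3 ± 2.65 CPM per kb in control (SD, n = 2), 63.1 ± 1.62 with SRPIN340 (SD, n = 2) and 66.3 ± 4.02 in acidosis (SD, n = 3), values that overlapped. This sum, unlike the shares within it, depends on library scaling, and by total count only it was 74.5 ± 2.68, 76.4 ± 2.0 and 52.4 ± 2.76 CPM per kb, with acidosis below the other groups. CDH2 provided 80.4% and 80.7% of this sum in control, 74.9% and 76.9% with SRPIN340 and 91.0%, 88.1% and 90.9% in acidosis. The share of CDH11 was 11.2% and 10.1%, 11.3% and 10.2%, and 2.36%, 3.66% and 2.24% in the same groups. CDH3 held 4.83% and 5.73% in control, 8.23% and 8.20% with SRPIN340 and 4.25%, 5.20% and 4.06% in acidosis, and CDH1 3.48% and 3.44%, 5.59% and 4.66%, and 2.42%, 3.03% and 2.77%. CDH11 was the largest of the minor shares in control and with SRPIN340, and in acidosis its share was below that of CDH3 in every sample. The shares of CDH3 and CDH1 were above control in both SRPIN340 samples, while neither gene passed against control in the fit of all 7 samples. For each unit of summed cadherin transcript, CTNND1 was at 0.344 ± 0.0204 in control, 0.306 ± 0.0136 with SRPIN340 and 0.45 ± 0.0303 in acidosis, and CTNNB1 at 1.51 ± 0.0249, 1.19 ± 0.024 and 0.489 ± 0.0191.

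**Figure D4:**
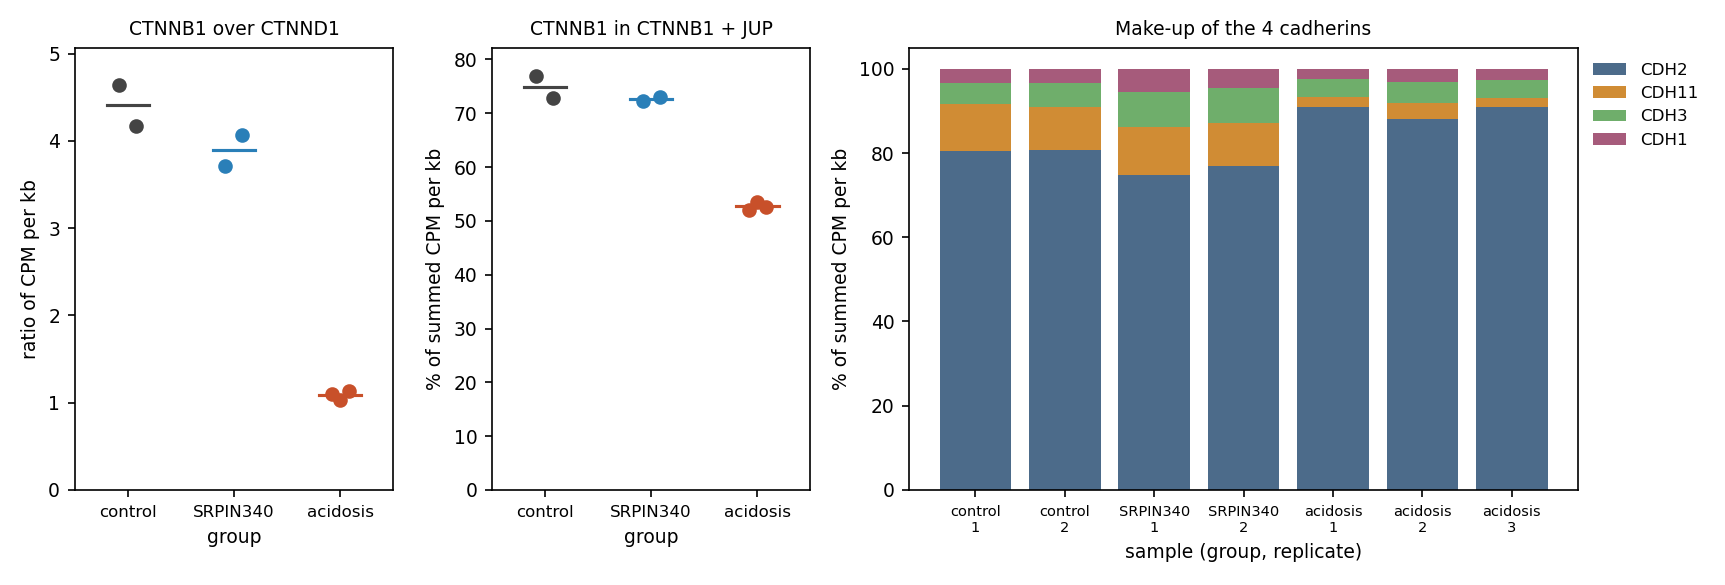
Ratio of CTNNB1 to CTNND1 (left), percentage of CTNNB1 in the sum of CTNNB1 and JUP (middle) and percentage of each cadherin in the sum of the 4 cadherins (right), all from CPM per kb; points and stacked bars are samples and short lines are group means. The 3 acidosis samples sit between 1.04 and 1.13 in the left panel and between 52.1% and 53.6% in the middle one, below all 4 other samples, and their bars hold 88.1% to 91.0% CDH2.

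Genes of the same junction and of Wnt signalling were counted from 11 lists written beside the members, of which 76 of 103 distinct genes passed in acidosis in either direction against 66.7% of all genes, and each count is given with the count under total-count scaling in parentheses. Of 14 other classical cadherins, 4 were tested, and 1 passed higher and 1 lower in acidosis (1 and 1), with a median log2 fold change of -0.52. CDH7 was at 28.5 and 27.5 CPM in control and at 2.73, 2.48 and 2.32 CPM in acidosis, a log2 fold change of -3.47 (adjusted p = 4.39e-08). CDH24 went the other way, from 14.1 and 14.5 CPM to 35.6, 28.4 and 36.0 CPM (log2 fold change 1.22, adjusted p = 6.03e-05). Of 6 tested relatives of the catenins, 3 passed higher and 2 lower (1 and 3), with a median of 0.077. ARVCF, the closest relative of p120-catenin and likewise a binder of the cadherin tail, was at 12.3 and 16.2 CPM in control and at 84.3, 56.7 and 65.1 CPM in acidosis (log2 fold change 2.27, adjusted p = 7.95e-06). CTNNA3, an alpha-catenin of heart and testis, fell from 4.76 and 4.35 CPM to 0.95, 1.19 and 1.12 CPM (log2 fold change -2.07, adjusted p = 0.000146).

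Partners of p120-catenin and regulators of small GTPases were split evenly. Of 18, 7 passed higher and 7 lower (5 and 9), with a median log2 fold change of 0.22. RHOA, the GTPase that p120-catenin restrains, was at 294 and 285 CPM in control and at 1102, 1080 and 1113 CPM in acidosis, with all acidosis samples above control by a wide margin (log2 fold change 1.93, adjusted p = 8.56e-09). RAC1, another small GTPase, rose from 276 and 292 CPM to 605, 586 and 606 CPM (1.08, adjusted p = 2.79e-07). CAMSAP3, which anchors microtubule minus ends and is tied to junctions through p120-catenin and PLEKHA7, fell from 26.2 and 28.3 CPM to 9.98, 7.53 and 9.03 CPM (-1.61, adjusted p = 6.58e-06). VAV2, ROCK2 and FER were also lower, and CDC42, YES1 and ZBTB33, the last of these encoding the p120-catenin binding repressor Kaiso, were higher.

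Of 15 actin linkers and nectins, 5 passed higher and 5 lower (1 and 9), with a median of 0.18. ZYX, the gene of the actin-associated protein zyxin, rose from 83.2 and 76.3 CPM to 410, 380 and 352 CPM (log2 fold change 2.25, adjusted p = 8.82e-08). TJP1, whose product ZO-1 binds alpha-catenin and tight junction proteins, was at 125 and 117 CPM in control and at 42.1, 73.1 and 40.1 CPM in acidosis (-1.23, adjusted p = 0.000495), and acidosis replicate 2 was apart from the other two. NECTIN1, an adhesion receptor that recruits cadherins, fell from 12.4 and 14.0 CPM to 4.28, 7.16 and 8.08 CPM (-1.04, adjusted p = 0.00358).

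Desmosomes share plakoglobin with the adherens junction, and of 7 tested desmosomal genes 3 passed higher and 2 lower (1 and 3), with a median of 0.44. PERP, a membrane protein of desmosomes, was at 166 and 159 CPM in control and at 613, 688 and 709 CPM in acidosis (log2 fold change 2.04, adjusted p = 5.12e-08). DSC1, a desmosomal cadherin of the epidermis, was near the floor at 0.396 and 0.316 CPM in control and 0.0594, 0 and 0.086 CPM in acidosis, and its pass (adjusted p = 0.0165) was lost with DESeq2 (0.0743) and without control replicate 1 (0.0702). All 7 genes listed for the cleavage and turnover of cadherins passed, 6 higher and 1 lower (2 and 1), with a median of 0.69, and none was called. They include the sheddase ADAM10 (0.38) and the gamma-secretase subunits PSENEN (0.91), NCSTN (0.69) and APH1A (0.63), higher under TMM scaling. The 1 gene that passed lower was at -0.63. CBLL1, the E3 ligase Hakai that marks E-cadherin for removal, was higher at 0.85.

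The degradation complex of beta-catenin was split, with 4 of 13 genes higher and 4 lower (2 and 8) and a median of 0.086. SIAH1, an E3 ligase that can degrade beta-catenin independently of that complex, rose from 21.9 and 21.1 CPM to 71.2, 73.8 and 83.8 CPM (log2 fold change 1.83, adjusted p = 4.00e-07). BTRC, the F-box protein that recognises phosphorylated beta-catenin, fell from 42.5 and 43.5 CPM to 17.2, 15.4 and 13.4 CPM (-1.48, adjusted p = 3.58e-06), and AMER1, a binder of APC, fell from 7.46 and 6.49 CPM to 1.43, 0.551 and 1.2 CPM (-2.66, adjusted p = 3.68e-05). The scaffold genes APC (-0.79) and AXIN1 (-0.36) were lower too, and the values of GSK3B (0.22, adjusted p = 0.177) and CSNK1A1 (0.08, adjusted p = 0.307) did not pass.

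Nuclear partners of beta-catenin counted 4 higher and 4 lower of 10 (0 and 6), with a median of -0.081. Of the DNA-binding partners, TCF7 fell from 44.4 and 44.3 CPM to 12.2, 14.8 and 16.4 CPM (log2 fold change -1.62, adjusted p = 2.83e-06) and LEF1 from 27.2 and 21.3 CPM to 9.62, 12.9 and 10.9 CPM (-1.13, adjusted p = 0.000176). TCF7L1 (-0.05, adjusted p = 0.732) and TCF7L2 (-0.11, adjusted p = 0.446) did not pass. Wnt target genes had no common direction, with 4 of 11 higher and 3 lower (2 and 6) and a median of -0.18. MYC rose from 12.0 and 13.1 CPM to 47.1, 50.9 and 45.7 CPM (1.93, adjusted p = 4.93e-07) and RNF43, an inhibitor of Wnt receptors, from 28.9 and 26.7 CPM to 83.0, 61.4 and 68.4 CPM (1.35, adjusted p = 1.35e-05). LGR5, a receptor for R-spondins, fell from 24.5 and 27.6 CPM to 6.12, 6.06 and 7.39 CPM (-2.0, adjusted p = 1.46e-06), and AXIN2, a target common to many tissues, was at 0.09 (adjusted p = 0.58). MYC answers to many pathways besides this one.

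Repressors of cadherin transcription had the highest median of these lists, 0.87, with 6 of 10 higher and 2 lower (6 and 2). ZEB1 rose from 37.9 and 36.3 CPM to 88.4, 87.2 and 97.2 CPM (log2 fold change 1.29, adjusted p = 1.94e-06), TWIST1 from 19.6 and 15.8 CPM to 41.5, 40.9 and 46.9 CPM (1.28, adjusted p = 1.78e-05) and SNAI2 from 1.69 and 2.28 CPM to 9.92, 10.1 and 7.74 CPM (2.22, adjusted p = 6.32e-05). In the same list 1 gene was called lower, and the lowest log2 fold change was -1.88. These factors are known to repress E-cadherin, whose gene CDH1 was at -0.28 without a pass under TMM scaling (adjusted p = 0.187). With total-count scaling CDH1 passed lower, at -0.85. A link between these genes was not tested. Of 3 regulators of epithelial exons, ESRP1, an RNA-binding protein known to act on CTNND1 exons, fell from 20.5 and 16.9 CPM to 5.64, 8.26 and 7.05 CPM (-1.44, adjusted p = 5.92e-05), ESRP2 was higher at 0.58 (0 higher and 2 lower of this list with total-count scaling) and RBFOX2 was at -0.08 (adjusted p = 0.299).

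With SRPIN340, 1 of the 103 distinct genes tested across these 11 lists passed, where 2.3% of all genes did. It was GSK3A, which encodes a kinase that marks beta-catenin for degradation, and was lower (log2 fold change -0.37, adjusted p = 0.0318). The named genes above had log2 fold changes between -0.83 for CTNNA3 (adjusted p = 0.18) and 1.64 for DSC1 (adjusted p = 0.176) with the inhibitor. RHOA was at 273 CPM in both samples, MYC at 11.6 and 11.8 CPM and ZEB1 at 36.0 and 40.2 CPM, so that RHOA and MYC were just below and ZEB1 across the control range.

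**Figure D5:**
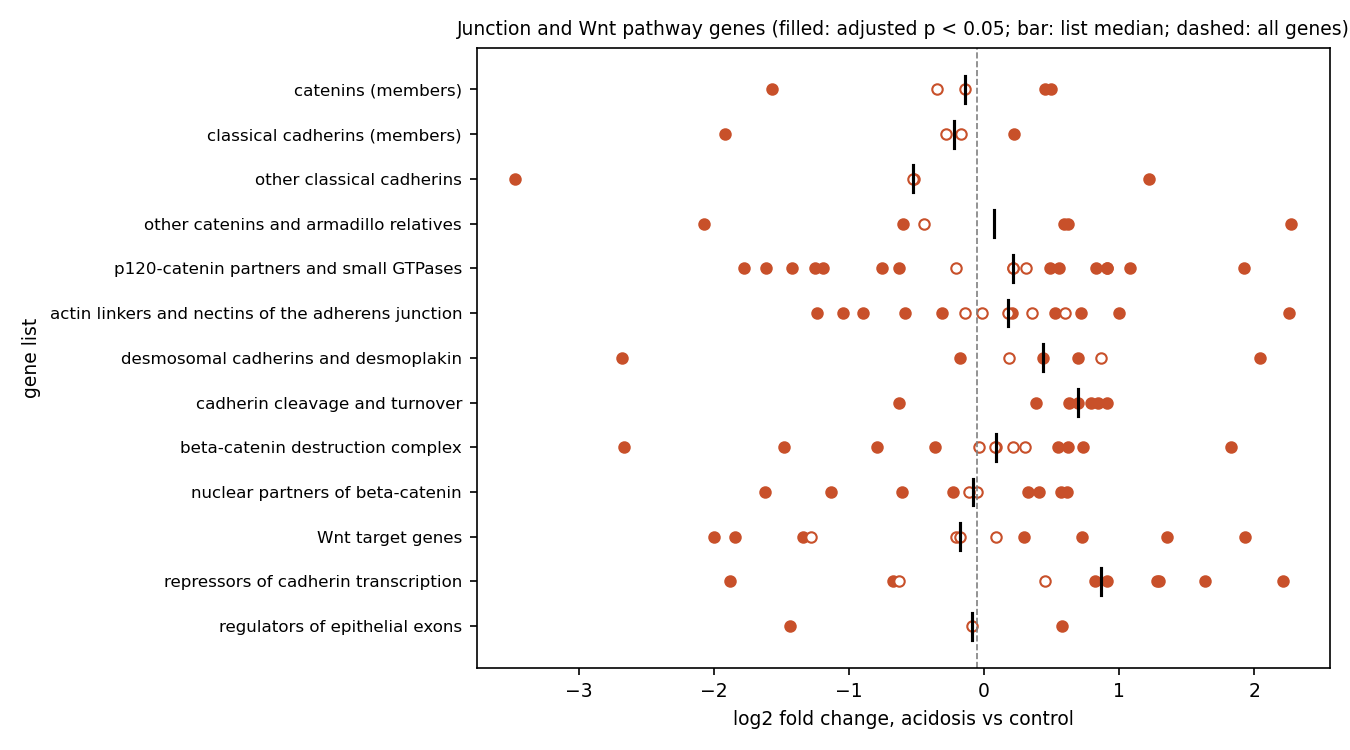
Log2 fold change in acidosis against control (x axis) of every tested gene of the members and of 11 junction and Wnt lists; filled points have an adjusted p under 0.05, short bars are list medians and the dashed line is the median of all 14863 genes, -0.052. Most lists spread to both sides of that line, with medians from -0.52 for other classical cadherins to 0.87 for repressors of cadherin transcription, and scaling by total count only moves the all-gene median to -0.63.

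The genes whose profile over the 7 samples was most like that of CTNND1 were found by the root mean square distance of log2 CPM after centring each gene, over 10118 tested genes with a mean of 10 CPM or more. HYI (distance 0.0439), RTCB (0.0448), SMARCD1 (0.0463), TGFB1 (0.0478) and TCP1 (0.0479) came nearest, with log2 fold changes of 0.38 to 0.46 in acidosis that turned to -0.19 to -0.11 with total-count scaling, and of -0.27 to -0.13 with SRPIN340. Among the members, CTNNA1 was the nearest at rank 58 (0.0703) and CDH2 followed at rank 1120 (0.157), while JUP was at rank 3663, CDH3 at 7079, CDH1 at 7234, CTNNB1 at 9005 and CDH11 at 9632. Over these 3 conditions the p120-catenin transcript thus ran alongside that of alpha-catenin and apart from that of beta-catenin, as a description of 7 samples.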

How the data were processed

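Poly(A)-selected RNA of 7 HEK-293 samples was sequenced. The authors trimmed reads with Trimmomatic 0.39 and Trim Galore 0.6.6, quantified transcripts with Salmon 1.5.1 against a Gencode GRCh38.p13 transcriptome and deposited tximport estimated counts per gene, not normalized between samples. The tximport option is not given in the sources used here. None of the 114530 values above 0 was whole (tolerance 1e-09).

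Identifiers of 19977 of 19978 genes were matched to GENCODE release 44. The test was the quasi-likelihood one of edgeR (4.0.16, R 4.3.3) on rounded estimated counts, with TMM, filterByExpr and Benjamini-Hochberg adjustment, and with DESeq2 1.42.0, the tool of the study, as an alternative. Standard errors came from the test statistic, and 95% intervals from the t distribution. The fit was tested on simulated data of 14863 genes with 200 changed. For acidosis against control it recovered 73% of genes changed by 1 on the log2 scale and 84% of those changed by 2, with 9 false passes. For SRPIN340 against control it recovered 68% and 92%, with 7 false passes. In the measured samples 66.7% of genes passed in acidosis against control. Library scaling with that many genes changed was not tested. Replicates of a group differed by more than sampling noise.

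Members and lists were chosen with earlier results of these data known. A few list genes were left out of the lists and their counts and are not reported here. The text names the members, the 3 genes of each list with the smallest adjusted p among those called in acidosis, any called with SRPIN340 (0 genes), and the 5 genes nearest to CTNND1 (mean of 10 CPM or more), and other genes of the lists were named after their values were seen. Alternatives were the tool, scaling, filter, samples in the fit, a replicate block, transcript length, each replicate left out and, chosen after seeing the data, adding read-through counts and summing cadherins by total count. Python 3.11.15 read the sequences and exons, and matplotlib 3.10.9 drew the figures.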

Additional observations from a re-analysis of the deposited data

How the results depend on the processing

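CTNNB1 and CDH11 kept their lower level and their pass in acidosis, against control and against SRPIN340, under every alternative run. Against control, 5 members passed in acidosis, 2 when a log2 fold change over 1 was asked for as well, and 4 to 5 when a replicate was left out. With total-count scaling 7 passed, 0 higher and 7 lower, where 3 had been higher and 2 lower, and with upper quartile scaling 5 did, 2 higher and 3 lower. With SRPIN340, 1 member passed, against 2 with DESeq2 and 2 with only the 2 groups compared in the fit (CDH3 beside CTNNB1), 0 with the fold limit and 0 to 0 when a replicate was left out. In acidosis against SRPIN340, 7 members passed, 2 with the fold limit and 7 to 7 when a replicate was left out, 6 passed with total-count scaling, 0 higher and 6 lower, and 6 with upper quartile scaling, 2 higher and 4 lower, where CDH2 did not (adjusted p = 0.09).

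With libraries scaled by total count only, acidosis against control turned to -0.12 for CTNND1, -0.078 for CTNNA1, -0.35 for CDH2, -0.11 for HYI, -0.15 for RTCB, -0.19 for SMARCD1, -0.14 for TGFB1 and -0.12 for TCP1, and acidosis against SRPIN340 to -0.40 for CTNND2, -0.57 for JUP and -0.30 for CDH2. The all-gene median against control moved with that scaling from -0.052 to -0.63, and to -0.22 with upper quartile scaling. JUP in acidosis against SRPIN340 turned to -0.12 with upper quartile scaling and to -0.0089 with a minimum of 6 CPM. With a replicate left out, CTNND2 in acidosis ranged from -0.71 without control replicate 2 to 0.10 without control replicate 1, and total-count scaling gave its lowest value, -0.92, with a pass (adjusted p = 0.0373). CDH11 with SRPIN340, which was near 0, turned to -0.0012 with RLE size factors and ranged from -0.11 to 0.13 without control replicate 2 and 1, with -0.094 without SRPIN340 replicate 1. CDH2 in acidosis lost its pass with upper quartile scaling (adjusted p = 0.476), a minimum of 6 CPM (0.0508) and only the 2 groups compared (0.0566). The cause of these changes was not tested.

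Same-numbered samples did not deviate together (correlations from -0.115 to 0.063), so no pairing by number was seen. This check cannot exclude pairing, because in a group of 2 the samples deviate from their mean by equal and opposite amounts. With the replicate number as a replicate block, 4 members passed in acidosis against control, where CDH2 did not (adjusted p = 0.101), 0 with SRPIN340, where CTNNB1 did not (0.117), and 7 between the treatments. Over all genes, 342 passed with SRPIN340, against 874 with DESeq2, 604 with only the 2 groups in the fit, 51 with the block and 14 to 67 when a replicate was left out, so a pass with SRPIN340 depends on these choices. Where leaving out a replicate leaves 1 sample in a group, that sample is assumed to vary like the other groups.

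CTNNA2, the member at the floor, is limited by counting, more so in acidosis, where totals were lowest. CTNND2 had low counts, 28.3 to 105 in a sample, above the floor of 3 counts, and the wider spread of its level was in control.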
